A study of Mus musculus with 2 samples.

Results

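The TNF superfamily ligands and receptors, the TRAF adaptors and the TNFAIP genes were followed in mouse C2C12 myotubes given exosomes of pancreatic cancer cells. Members were the non-control probes whose gene name in both scanner files is Tnf, Lta, Ltb, Ltbr or a numbered Tnfsf, Tnfrsf, Traf or Tnfaip name, which gave 85 of the 56605 distinct probes and 46 genes: 13 ligands, 21 receptors, 7 TRAFs and 5 TNFAIPs. One culture received 4 µg of exosomes for 24 h from a line of KPC mice, which carry KrasLSL-G12D/+, Trp53LSL-R172H/+ and Pdx1-Cre (KPC-exo). The control culture received exosomes of the mouse pancreatic ductal epithelial line MPDC for 24 h (MPDC-exo), at a dose not given in the sources used here. C2C12 is an established mouse myoblast line, and the labels' protocols describe its differentiation to myotubes in horse serum before the exosomes were added. There was 1 array per group, so no test was run, no difference below has a replicate check, and every fold describes these 2 arrays.

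TNF superfamily ligands are mostly membrane proteins that act as trimers on receptors of adjoining or distant cells. Receptors that signal, unlike decoy receptors, mostly carry either a death domain or short motifs that bind TRAF proteins. The death domain recruits TRADD or FADD and can lead to caspase activation. Many TRAF proteins are ubiquitin ligases that lead to NF-kB and MAP kinase signalling. In skeletal muscle TNF and the ligand TWEAK (Tnfsf12), which binds Fn14 (Tnfrsf12a), are known for promoting loss of muscle mass, and TRAF6 is known there for its part in atrophy signalling.

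Signal is given below as log2 of the background-subtracted spot intensity relative to the array's 75th percentile. A gene is represented by its brightest probe and called measured where the scanner software set that probe well above background on both arrays. A probe set well above background on an array is called detected there, and one that was not is called not detected, which is not to say absent. The error after ± is the software's own error for 1 spot on each array, which ranged from 0.20 to 0.39 on the log2 scale for the differences of measured members, and it leaves out variation between cultures. Signals of different probes depend on the probe and are not read as relative amounts of RNA. Both arrays lay on 1 slide, and 47.6% of probes on the KPC-exo array and 45.9% on the MPDC-exo array were well above background. In bulk RNA, fewer cells of a type and less RNA per cell cannot be told apart.

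The probes on which the results turn are shown by the first 30 of their 60 bases, read 5′ to 3′ as the scanner files give them, with the mm9 positions and strands of those files. Whether exons, introns or UTRs hold them was not analysed here. The probes of Traf6, listed from the 5′ to the 3′ end of the gene, are shown because their values differ most within 1 gene. The probes of Tnfsf10 are shown because the brighter one is a simple tandem repeat, whose unit of 15 bases stands in capitals and fills the whole probe head to tail. Those of Tnfrsf12a and Tnfsf12 are the single probes of that receptor and its ligand. Those of Tnfrsf1a and Tnfrsf23, also listed from the 5′ end, gave unequal values.
Traf6 probe A (chr2:101519206-101519265, + strand): ttcccctgtccggggaaggaaatcgcctgc
Traf6 probe B (chr2:101526308-101526367, + strand): aaatggattaatccactgaggaggtcagag
Traf6 probe C (chr2:101537964-101538023, + strand): aaggccagacttagcgtgctgcagctcaat
Traf6 probe D (chr2:101540660-101540719, + strand): ttaactatcgaggtgattcttacttaagac
Traf6 probe E (chr2:101542497-101542556, + strand): attgctgactgaccacttaagttcaatttt
Tnfsf10 repeat probe (chr3:27241288-27241347, + strand): AGCGCCCCTGACAACagcgcccctgacaac
Tnfsf10 RefSeq mRNA probe (chr3:27238508-27238567, + strand): gggaaatgttaaactttgtaaactctgaaa
Tnfrsf12a probe (chr17:23812746-23812805, - strand): agccttccaaggtgtccaattgccctatct
Tnfsf12 probe (chr11:69500528-69500587, - strand): tttgatgagggaaaggctgtctacctgaag
Tnfrsf1a probe A (chr6:125311454-125311513, + strand): tcctagtaactggcacttcatgccacctgt
Tnfrsf1a probe B (chr6:125312376-125312435, + strand): agcaatctttgtatcaattatatcacacta
Tnfrsf23 probe A (chr7:150865851-150865910, - strand): acattcacagggaaagataatggcctgcat
Tnfrsf23 probe B (chr7:150854429-150854488, - strand): actggctgttcctactgatgctaattgtct
Tnfrsf23 probe C (chr7:150851714-150851773, - strand): cctgggtcagtgaactcaactgagagcaat

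Receptors and TRAFs were detected more often than ligands. Well above background on both arrays were 21 of 38 receptor probes, 12 of 15 TRAF probes, 7 of 11 TNFAIP probes and 6 of 21 ligand probes, which makes 46 of 85, while 44.1% of all probes on the array were. By gene, 15 of 21 receptors, 6 of 7 TRAFs, 4 of 5 TNFAIPs and 5 of 13 ligands were measured, in all 30 of 46, against 45.6% of all genes. The other 16 members comprised 2 detected on the KPC-exo array only, 2 on the MPDC-exo array only, and 12 on neither. By probe, 3 of the 85 were detected on the KPC-exo array only, 4 on the MPDC-exo array only and 32 on neither. Of all probes, 3.51%, 1.82% and 50.5% were, in the same order. No member probe shared a stretch of 20 bases with a probe of another gene on the array. Transcripts and the genome were not searched, so cross-hybridisation was not tested.

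**Figure D1:**
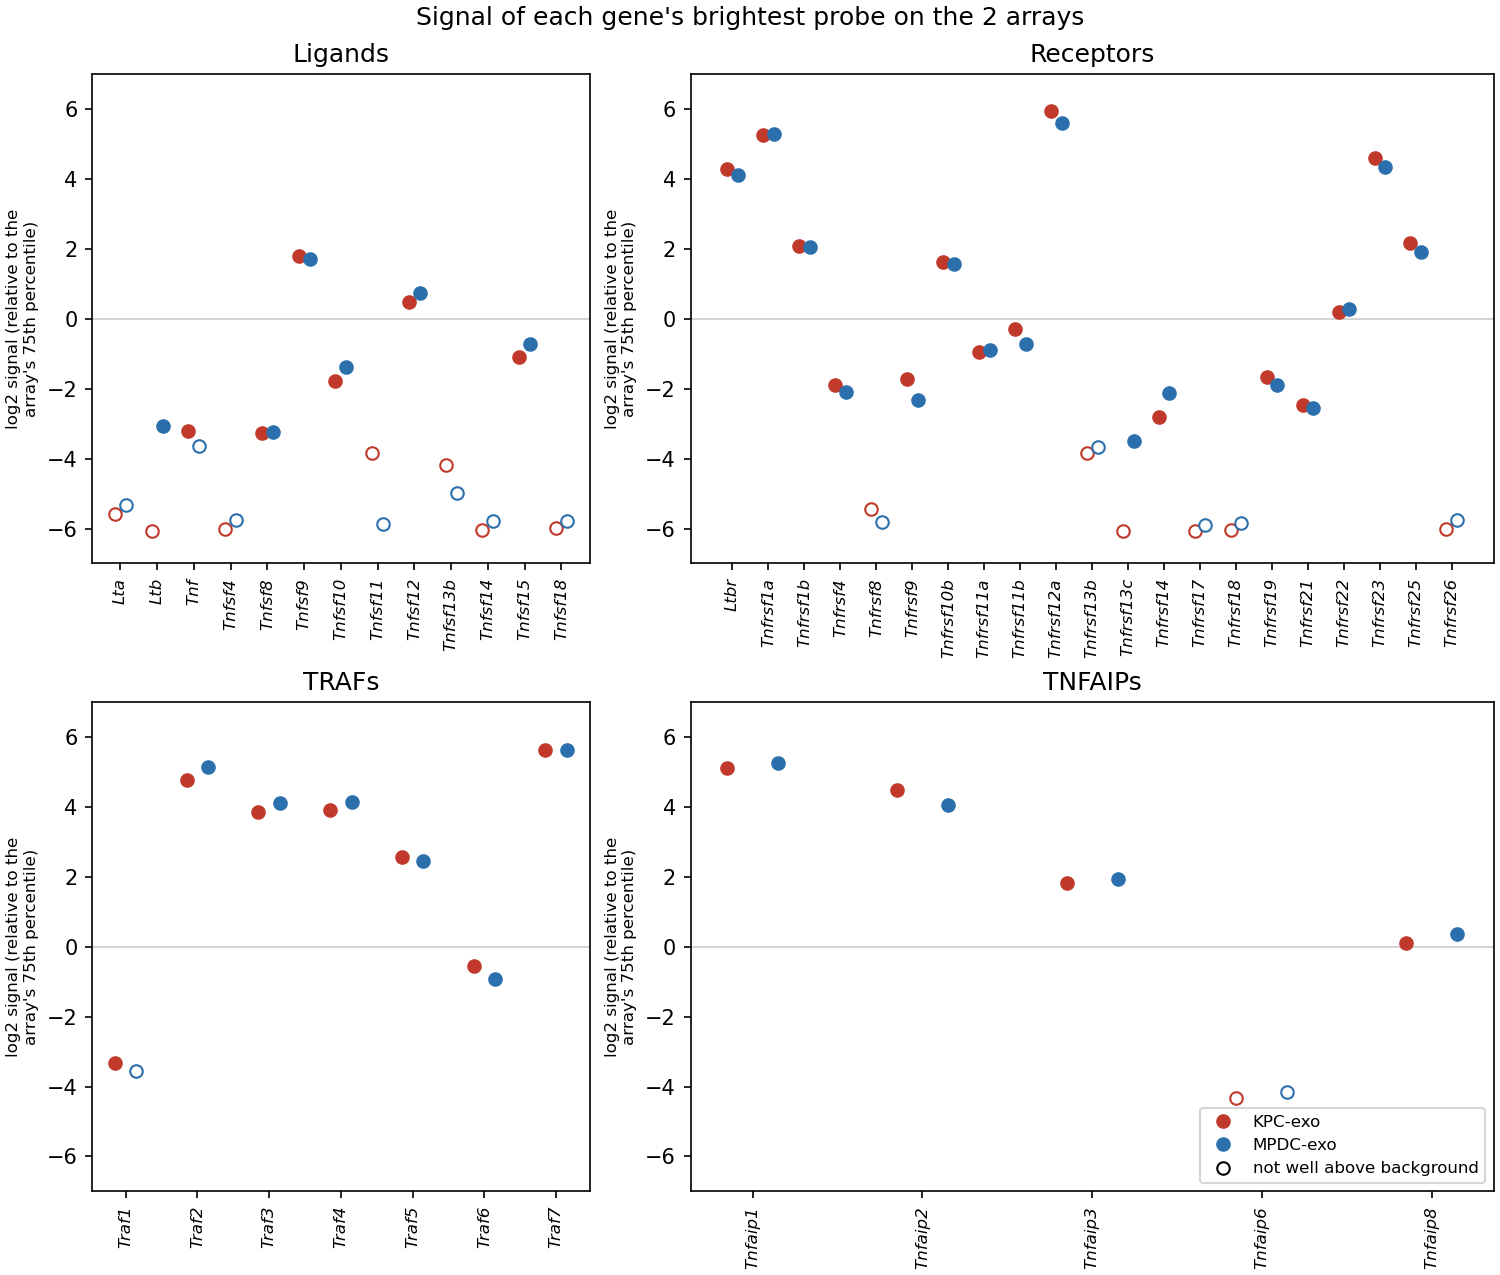
Signal of each member gene's brightest probe on the KPC-exo array (red, left point) and the MPDC-exo array (blue, right point), as log2 relative to the array's 75th percentile, in panels of ligands, receptors, TRAFs and TNFAIPs. Filled points are well above background and open points are not, and 30 of the 46 genes are filled on both arrays.

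Across the 30 measured members the arrays differed little. The median log2 difference, KPC-exo minus MPDC-exo, was 0.02 over the members and 0.06 over all 16908 measured genes. The middle 50% of the members ran from -0.21 to 0.20, and that of all genes from -0.12 to 0.23. Of the members 16 lay above 0 and 14 below, where 59.0% of all measured genes lay above 0. At least 1.5-fold higher was 1 member (Tnfrsf9), against 3.68% of all measured genes, and at least 1.5-fold lower was 1 (Tnfrsf14), against 3.70%. In either direction 2 of the 30 were, against 7.38% of all measured genes. None of the 30 was 2-fold apart, against 1.92% of all genes. The difference exceeded 2 times the scanner error in 4 members (Tnfrsf9, Tnfrsf14, Tnfrsf11b and Tnfaip2), against 14.0% of all genes. These shares lie near the background. Every sign here is relative to the 75th percentile. Centring on the 7 spike-in probes instead raised all differences by 1.00, to a median of 1.02 over the members and 1.06 over all genes, and turned the negative differences of the members positive.

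Both members past 1.5-fold were dim. Of the 7 members in the dimmest 25% of measured genes 2 were at least 1.5-fold apart, where 17.3% of all genes in that range were. Of the 23 brighter members 0 were, where 4.05% of all such genes were, and the largest absolute difference among the 23 was 0.45.

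**Figure D2:**
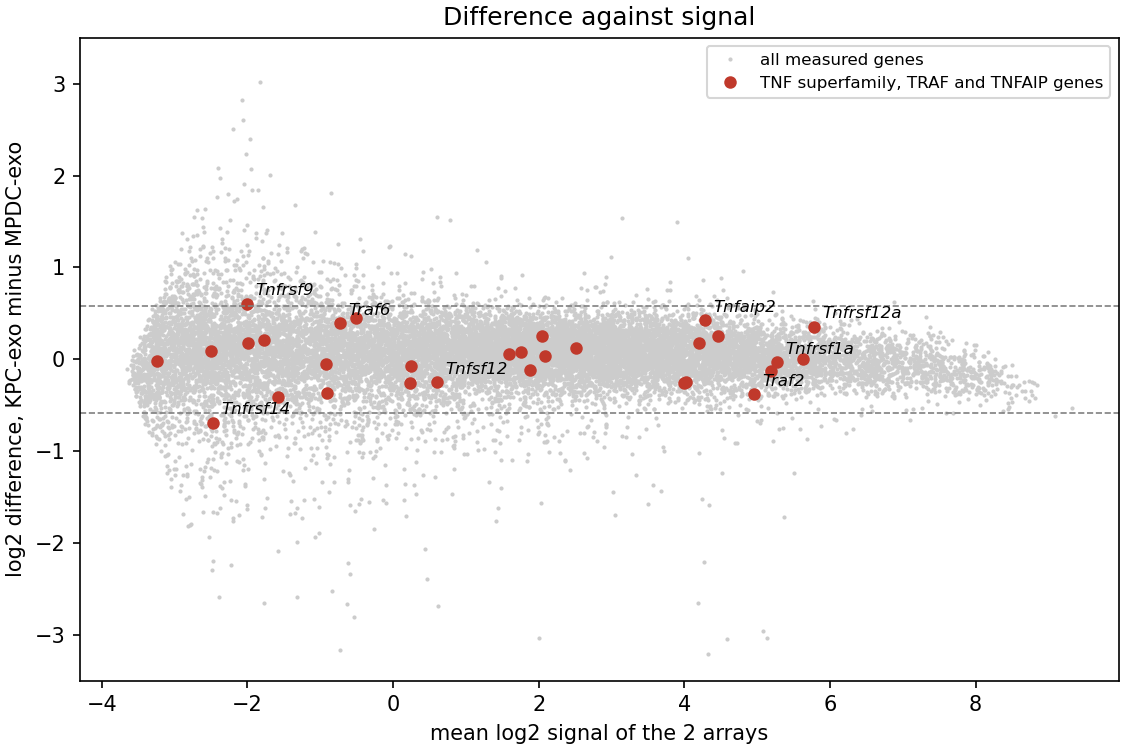
Log2 difference, KPC-exo minus MPDC-exo, against the mean log2 signal of the 2 arrays for all 16908 measured genes (grey) and the 30 measured members (red), with dashed lines at 1.5-fold. The members lie within the grey cloud, and the 2 members past the lines, Tnfrsf9 and Tnfrsf14, sit at its dim end.

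Among the ligands, Tnf itself, the founding cytokine of the family, was at the edge of detection. Its brighter probe had a log2 signal of -3.21 on the KPC-exo array, where it was detected, and -3.63 on the MPDC-exo array, where it was not. The bound for Tnf was at least 1.32-fold higher after KPC-exo, while the scanner error of the log2 difference was 0.41, as large as the bound, and neither array had the second Tnf probe well above background. Lta, which encodes lymphotoxin alpha, was not detected on either array. Ltb, which encodes the lymphotoxin beta chain that joins it in a heterotrimer, had -6.08 on the KPC-exo array, not well above background, and -3.06 on the MPDC-exo array, so that it was at least 1.62-fold lower after KPC-exo. That bound rests on 1 dim spot per array. Bounds are taken against the dim array's detection limit, its lowest well-above-background signal of any probe, or against the dim probe itself where that is brighter. In the second case the value is the probe's own fold and no lower limit.

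Tnfsf12, which encodes TWEAK, had a log2 signal of 0.48 on the KPC-exo array and 0.73 on the MPDC-exo array at its single probe, a difference of -0.25 ± 0.21. Its spot on the KPC-exo array carried a flag on the local background, as did the brightest probes of Tnfaip3, Traf3, Ltbr and Tnfrsf21 there. Those of Ltbr and Tnfrsf21 were flagged on the MPDC-exo array as well. The dimmer measured probe of Tnfrsf1b was flagged on both arrays, and that of Tnfrsf21 on the KPC-exo array. Tnfsf9, which encodes 4-1BB ligand, a costimulator of T cells, had 1.80 on the KPC-exo array and 1.72 on the MPDC-exo array. Tnfsf15, which encodes TL1A, had -1.09 on the KPC-exo array and -0.72 on the MPDC-exo array at its brighter probe, a difference of -0.36, and -0.03 at the other. All 3 of these ligands lay within 1.5-fold. Tnfsf8, which encodes CD30 ligand, had -3.26 on the KPC-exo array and -3.24 on the MPDC-exo array at a probe near the detection limit.

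Tnfsf10, which encodes the death ligand TRAIL, was measured only through the tandem-repeat probe shown above. That probe had -1.79 on the KPC-exo array and -1.38 on the MPDC-exo array, a difference of -0.41 ± 0.23. The probe to the RefSeq mRNA of Tnfsf10 was not detected on either array. The repeat probe was designed on a cDNA clone, and its spot on the KPC-exo array carried a flag on the local background. Not detected on either array were also Tnfsf4, Tnfsf11 (RANKL, the osteoclast differentiation factor), Tnfsf13b (BAFF, a B cell survival factor), Tnfsf14 (LIGHT) and Tnfsf18.

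Of the TNF and lymphotoxin receptors, all 3 were measured. Tnfrsf1a, the death domain receptor of TNF, had a log2 signal of 5.26 on the KPC-exo array and 5.29 on the MPDC-exo array at probe B, a difference of -0.03 ± 0.20. Probe A of the same gene had 0.63 on the KPC-exo array and 1.27 on the MPDC-exo array, a difference of -0.63 ± 0.20, which would be past 1.5-fold. Its spot on the KPC-exo array carried a flag on the local background, and with normexp the differences of probes A and B were -0.60 and 0.05. Tnfrsf1b, the second TNF receptor, which has no death domain, had 2.10 on the KPC-exo array and 2.06 on the MPDC-exo array, with differences of 0.04 and -0.16 at its 2 measured probes. Ltbr, the lymphotoxin beta receptor and a route to the alternative NF-kB pathway, had 4.29 on the KPC-exo array and 4.11 on the MPDC-exo array, a difference of 0.18.

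Tnfrsf12a, which encodes the TWEAK receptor Fn14, had a log2 signal of 5.96 on the KPC-exo array and 5.61 on the MPDC-exo array at its single probe. The difference was 0.36 ± 0.20, or 1.28-fold higher after KPC-exo, short of 1.5-fold and of 2 times the scanner error. Over the scalings tried, other than centring on spike-in probes, it ran from 0.30 to 0.41. Tnfrsf12a was measured alongside its ligand Tnfsf12, which had -0.25 at a spot flagged for its background on the KPC-exo array.

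Tnfrsf9, which encodes the costimulatory receptor 4-1BB, was 1.52-fold higher after KPC-exo. It had a log2 signal of -1.71 on the KPC-exo array and -2.31 on the MPDC-exo array, a difference of 0.61 ± 0.25 at 1 probe. The other probe of Tnfrsf9 was not detected on either array. With normexp background correction the difference was 0.28, and with 4 other scalings it lay between 0.55 and 0.57, so it did not stay past 1.5-fold. Tnfrsf14, which encodes HVEM, a receptor of LIGHT, was 1.61-fold lower after KPC-exo. It had -2.81 on the KPC-exo array and -2.12 on the MPDC-exo array, a difference of -0.69 ± 0.27 at 1 probe, and -0.58 with normexp. Its second probe was not detected on either array.

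Among the receptors of bone and death ligands, Tnfrsf11b, which encodes osteoprotegerin, a soluble decoy receptor of RANKL, had -0.28 on the KPC-exo array and -0.73 on the MPDC-exo array. Its difference of 0.45 ± 0.21 amounted to 1.37-fold. Tnfrsf11a, which encodes RANK, had -0.94 on the KPC-exo array and -0.90 on the MPDC-exo array, a difference of -0.05. Tnfrsf10b, the mouse death receptor for TRAIL, had 1.62 on the KPC-exo array and 1.57 on the MPDC-exo array at its brightest probe, a difference of 0.05. A dim probe of Tnfrsf10b was detected on the MPDC-exo array only. It had -3.90 on the KPC-exo array and -3.18 on the MPDC-exo array, a bound of at least 1.496-fold lower. The remaining probe of the gene was not detected on either array. Tnfrsf25, the death domain receptor of TL1A, had 2.17 on the KPC-exo array and 1.92 on the MPDC-exo array, a difference of 0.25. Tnfrsf21, the death domain receptor DR6, had 0.09 and -0.14 in log2 difference at its 2 measured probes.

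The mouse decoy receptors of TRAIL, Tnfrsf22 and Tnfrsf23, were both measured. Probe C of Tnfrsf23 had a log2 signal of 4.59 on the KPC-exo array and 4.34 on the MPDC-exo array, a difference of 0.25 ± 0.20. Probe B had -2.21 on the KPC-exo array and -1.49 on the MPDC-exo array, a difference of -0.71 ± 0.24. Probe A was detected on the MPDC-exo array only, where it had -2.82, against -3.71 on the KPC-exo array. By these signals it was 1.85-fold lower after KPC-exo, with a scanner error of 0.40 in log2. The direction of Tnfrsf23 thus depended on the probe. Tnfrsf22 had -0.07 and -0.22 in log2 difference.

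Tnfrsf19, the orphan receptor TROY, had 0.21 and -0.16 in log2 difference at its 2 measured probes, and Tnfrsf4, the T cell costimulator OX40, had 0.18. Tnfrsf13c, the BAFF receptor of B cells, was detected on the MPDC-exo array only, with -6.06 on the KPC-exo array and -3.51 on the MPDC-exo array, a bound of at least 1.19-fold lower. Tnfrsf8, Tnfrsf13b, Tnfrsf17, Tnfrsf18 and Tnfrsf26 were not detected on either array. Of the 15 measured receptors 11 had a difference above 0, with a median of 0.18, and of the 5 measured ligands 1 had, with a median of -0.25, against 59.0% and a median of 0.06 for all measured genes. Above that median of all genes lay 9 of the 15 receptors and 1 of the 5 ligands. Without Tnfsf10, measured by the repeat probe, the median of the ligands was -0.13, a setting chosen after seeing the data. The ligand median also depended on the probe of Tnfsf15, whose 2 probes had nearly equal mean signals of -0.91 and -0.99. The difference at the second of these, -0.03, would itself be the middle value of the 5 ligands.

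Known pairs of ligand and receptor were set side by side for 19 pairs of members. These leave out Tnfsf10 with its decoy receptors Tnfrsf22 and Tnfrsf23, although these genes were measured. Both partners were measured in 4 of the 19 pairs: Tnfsf9 with Tnfrsf9, Tnfsf10 with Tnfrsf10b, Tnfsf12 with Tnfrsf12a, and Tnfsf15 with Tnfrsf25. Tnfsf10 counts here only through its repeat probe. The receptor alone was measured in 10 pairs, among them those of Tnf, Lta, Ltb, Tnfsf11 and Tnfsf14, and the ligand alone in 1, Tnfsf8 without Tnfrsf8. In 4 pairs neither was, 3 of them pairs of Tnfsf13b.

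Of the TRAFs, Traf2, a ubiquitin ligase recruited by both TNF receptors, was lower on the KPC-exo array at both probes but within 1.5-fold. Its brighter probe had a log2 signal of 4.76 on the KPC-exo array and 5.14 on the MPDC-exo array, a difference of -0.38 ± 0.20, and its other probe had -0.18 ± 0.20. Traf3, which holds back the alternative NF-kB pathway, had -0.26 at its brighter probe, 3.86 on the KPC-exo array and 4.12 on the MPDC-exo array, and 0.13 at the other. Traf4 had 3.91 on the KPC-exo array and 4.15 on the MPDC-exo array, a difference of -0.24. Traf5 had 0.13 and 0.24 at probes that overlap by 44 bases and are not separate measurements. Traf7 had 5.63 on both arrays at its brighter probe. The dim probe of Traf7 was detected on the KPC-exo array only. It had -3.30 there and -4.54 on the MPDC-exo array, a bound of at least 1.24-fold higher. Traf1, which lacks the RING domain and is induced by NF-kB, was detected on the KPC-exo array only, with -3.33 there and -3.56 on the MPDC-exo array. By these signals it was 1.17-fold higher after KPC-exo, and the scanner error of 0.43 was larger than the log2 difference of 0.23.

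Traf6, the ubiquitin ligase of Toll-like receptor, IL-1 receptor and some TNF receptor signalling, had a positive difference at each of its 4 measured probes. Probe D, the brightest, had a log2 signal of -0.54 on the KPC-exo array and -0.93 on the MPDC-exo array, a difference of 0.40 ± 0.21. Probe A, at the 5′ end, had -0.87 on the KPC-exo array and -1.59 on the MPDC-exo array, a difference of 0.73 ± 0.22. Probe C had -2.40 on the KPC-exo array and -2.51 on the MPDC-exo array, a difference of 0.11 ± 0.28.

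Probe E of Traf6, the farthest 3′, had -1.22 on the KPC-exo array and -2.90 on the MPDC-exo array, a difference of 1.68 ± 0.28. Probe E and probe A come from cDNA clones, while C and D come from the RefSeq mRNA. Probe B, from an Ensembl transcript, was not detected on either array. With normexp the differences of probes A, C, D and E were 0.43, -0.07, 0.34 and 0.90. The mean over the 4 measured probes was 0.73, past 1.5-fold, whereas the RefSeq probes C and D lay within it. The size of the Traf6 difference thus depended on the probe, and the 2 probes past 1.5-fold are those of the clones.

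**Figure D3:**
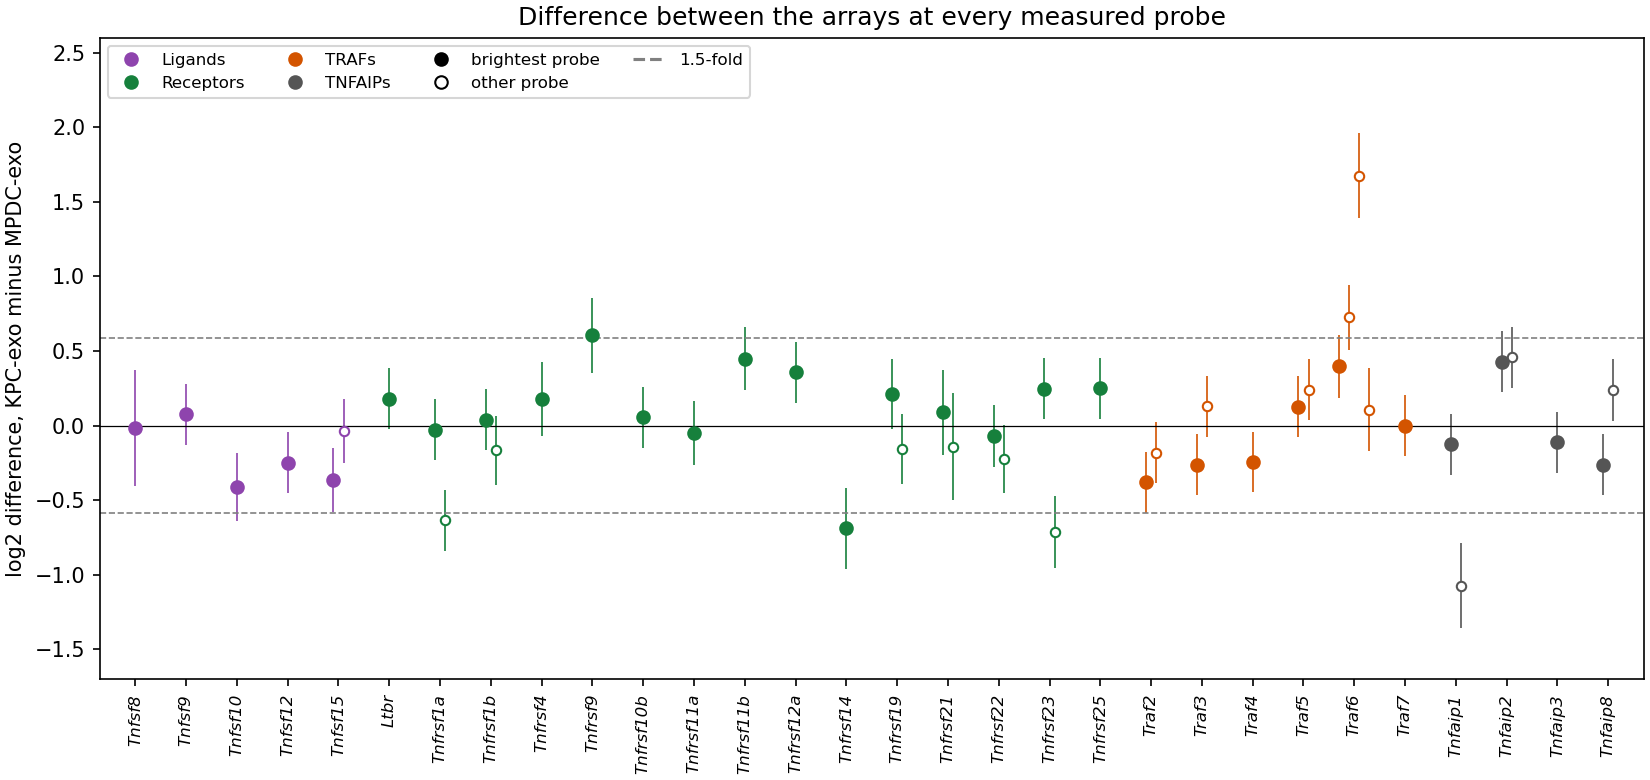
Log2 difference, KPC-exo minus MPDC-exo, at every measured member probe, by gene, with filled points for the gene's brightest probe, open points for others, bars for the scanner error and dashed lines at 1.5-fold. All brightest probes lie within the dashed lines other than those of Tnfrsf9 and Tnfrsf14, and the probes of Traf6 spread from 0.11 to 1.68.

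Of the TNFAIP genes, named for induction by TNF, 4 were measured. Tnfaip2 had a log2 signal of 4.49 on the KPC-exo array and 4.06 on the MPDC-exo array at 1 probe, a difference of 0.43 ± 0.20, and 4.03 on the KPC-exo array and 3.57 on the MPDC-exo array at the other, a difference of 0.46 ± 0.20. Its probes differed by only 0.03, which makes it the member with several measured probes, among 14, whose probes lay closest. Tnfaip3, which encodes A20, a ubiquitin-editing brake on NF-kB and itself an NF-kB target, had 1.82 on the KPC-exo array and 1.93 on the MPDC-exo array, a difference of -0.11 ± 0.20.

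Tnfaip1 had -0.12 at its bright probe, 5.13 on the KPC-exo array and 5.26 on the MPDC-exo array, and -1.07 ± 0.29 at a dim probe. Tnfaip8, an apoptosis regulator, had -0.26 and 0.24 at its 2 measured probes, and the spot of the first carried a background flag on the MPDC-exo array. Its 3 other probes were not detected on either array. Tnfaip6, which encodes the hyaluronan-binding protein TSG-6, was not detected on either array. Of the 4 measured TNFAIP genes 1 lay above 0, against 59.0% of all measured genes, and 3 below, among them Tnfaip8, which had 0.24 at the probe with no flag.

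Probes of 1 gene often pointed both ways. Of the 14 members with at least 2 measured probes 6 did, where 53.9% of all such genes did, and in 5 the probes ranged over at least 0.5 in log2 difference, where 34.1% of all such genes did. The pooled SD between the probes of a gene was 0.43 over these members and 0.36 over 5767 genes. Most member differences at the brightest probe are smaller than either SD.

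For 13 members the outermost measured probes on 1 strand could be set against each other. The probe nearer the 5′ end had the lower difference in 9 of the 13, with a median of -0.23 for the 5′ minus the 3′ value. Over 5598 genes it was lower in 54.5%, with a median of -0.05. The 5′ probe was also the dimmer one in 9 of the 13 members and in 4651 of the 5598 genes, so position and dimness mostly run together. In Traf6, Tnfaip8 and Tnfsf15, however, the 5′ probe had the lower difference and was the brighter one. Tnfrsf23, Traf6, Tnfaip1 and Tnfrsf1a had the largest gaps, -0.96, -0.95, -0.95 and -0.61. The part of probe position, dimness and RNA quality in these gaps was not tested.

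**Figure D4:**
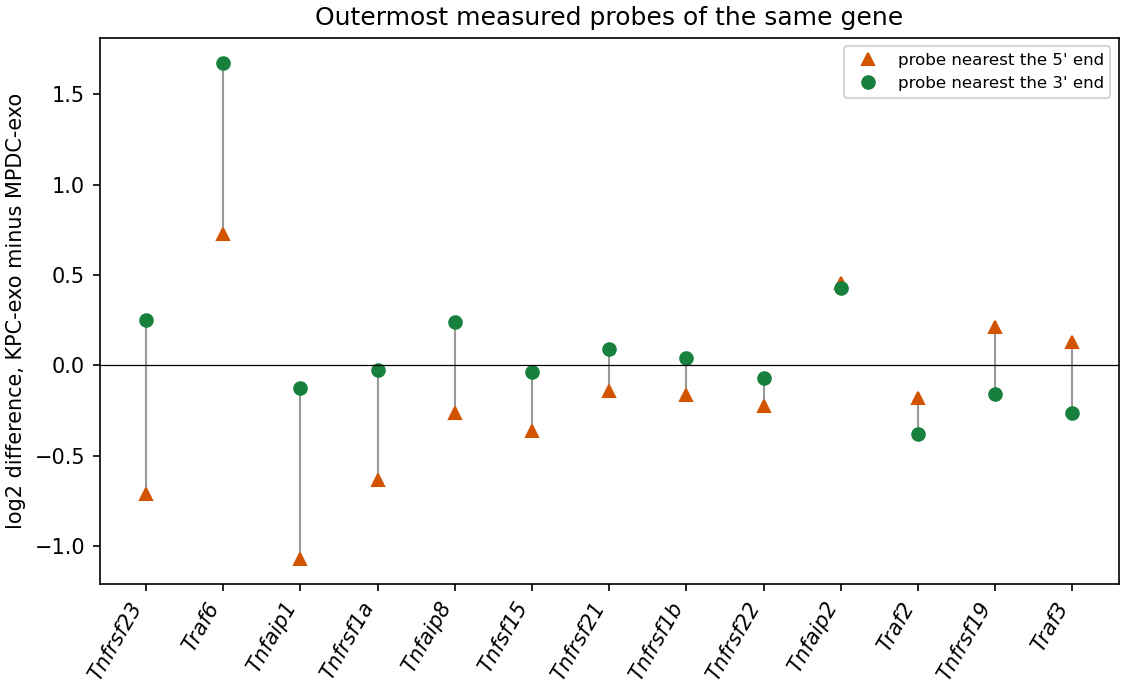
Log2 difference, KPC-exo minus MPDC-exo, at the outermost measured probes of 13 member genes, with triangles for the probe nearest the 5′ end and circles for the one nearest the 3′ end. The triangle lies below the circle in 9 of the 13 genes.

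Of 114 further genes in 8 lists, which hold signalling genes, NF-kB targets, proteases and superfamily members under other names, 100 were measured, with a median log2 difference of 0.09. At least 1.5-fold higher were 3 and at least 1.5-fold lower 0, against 3.68% and 3.70% of all measured genes. Nfkbie, which encodes IkB epsilon, an inhibitor that holds NF-kB in the cytoplasm, was 1.89-fold higher at 1 probe, with 2.23 on the KPC-exo array and 1.31 on the MPDC-exo array. Rbck1, which encodes HOIL-1, a subunit of the linear ubiquitin ligase of the TNF receptor complex, was 1.58-fold higher at 1 probe, with 4.92 on the KPC-exo array and 4.25 on the MPDC-exo array. The third was Nos2, the inducible nitric oxide synthase, at 1.52-fold, a log2 difference of 0.60 ± 0.25 at a dim probe. With median centring Nos2 had 0.55, which is under 1.5-fold.

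By list, NF-kB subunits and inhibitors had a median of 0.19 over 11 measured genes, with Nfkbid at 0.44 and Nfkbiz at 0.37, and the 2 probes of Nfkbiz had -0.28 and 0.37. NF-kB target genes had 0.11 over 21, of 24 listed, with Lif at 0.42 ± 0.39 and the protease gene Plau at -0.32 ± 0.20. The Lif probe lay near the detection limit, with -3.10 on the KPC-exo array and -3.53 on the MPDC-exo array. The adaptors and caspases of the death domain had 0.09 over 14, with 0 past 1.5-fold, Ripk3 at 0.33, Daxx at -0.29 and Fadd at 0.25. The kinases, listed together with some of their adaptors and subunits, had 0.09 over 17, with Mapk9 at 0.43, the adaptor Tank at 0.35 and Tbk1 at 0.32. The probes of Mapk9 ran from -0.38 to 0.43 and those of Tank from -0.04 to 0.35.

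The ubiquitin machinery had a median of 0.00 over 14, with Cyld, a deubiquitinase that restrains NF-kB, at -0.35 and Otud7b at -0.26, and the probes of Cyld ran from -0.75 to 0.10. Birc3, an inhibitor of apoptosis that NF-kB induces, was not detected on either array. Proteins that bind or regulate TRAFs had 0.22 over 12, with the IL-1 receptor kinase Irak4 at 0.58, Traf3ip2 at 0.36 and Sqstm1 at 0.35. Proteases that release ligands and receptors were listed together with the inhibitor Timp3 and the regulators Rhbdf1 and Rhbdf2. This list had -0.01 over 8, with Furin at -0.36, Adam9 at 0.20 and Mmp7 at 0.15.

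Of 11 superfamily members that go by other names 3 were measured, against 45.6% of all genes: Fas, the receptor of Fas ligand, at a log2 difference of -0.06, Eda2r, a receptor of ectodysplasin, at 0.17, and Relt at 0.15. Cd70 was detected on the KPC-exo array only and Ngfr on the MPDC-exo array only. Fasl, Cd40, Cd40lg, Cd27, Eda and Edar were not detected on either array.

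As a check of the labelled cells, all 12 listed skeletal muscle markers were measured, and the summed signal of the list was 8.78 on the KPC-exo array and 8.77 on the MPDC-exo array on the log2 scale. Of the 12 markers 1 was at least 1.5-fold higher, Mb at 0.60, against 3.68% of all measured genes, while Ckm had -0.43 and Des -0.41. Many members are known from immune cells. Of 11 immune markers 7 were measured, with log2 signals from -0.84 to 3.04 on the KPC-exo array and from -1.40 to 3.14 on the MPDC-exo array, and the summed signal over all 11 was 3.95 and 4.02, in the same order. At least 1.5-fold apart were 3 of the 7, 1 higher (Cd68, 0.63) and 2 lower (Csf1r, -0.87, and Cd3e, -0.77). Of all measured genes 7.38% were. Of the dimmest 25%, where Cd68 lay, 17.3% were, and of the brighter genes, where Csf1r and Cd3e lay, 4.05%. The 2 measured probes of Csf1r had -0.87 and -0.33. Adgre1, Cd79a and Cd8a were among those not detected on either array. Of 8 markers of the ductal epithelium that released the control exosomes 2 were measured, Sox9 and Krt19, while Epcam, Krt8 and Krt18 were not well above background, with sums of 0.62 and 0.68 on the KPC-exo and MPDC-exo arrays. Of 6 endothelial markers 1 was measured, with sums of -1.11 and -1.14, and of 7 fibroblast markers 6, with sums of 9.15 and 9.20, in the same order. The part of such markers in the members' values was not tested.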

How the data were processed

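Per the labels, Cy3-labelled cRNA of C2C12 total RNA was hybridised to 1-colour Agilent arrays, and spot values come from Agilent Feature Extraction 10.7.1.1 per the submitters' processing notes. Each array's deposited file gives linear spot intensity, from which the scanner software had subtracted background, with no normalization between arrays. The authors' deposited value table is in log2 units, its normalization is unstated, and it served as an alternative.

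Non-uniform spots and population outliers, by the software's flags, were removed, log2 of the processed signal was averaged per probe, and each array's 75th percentile was subtracted (639 units on the KPC-exo array, 380 on the MPDC-exo array). Of 56605 probes, 32994 took their gene name from RefSeq (GRCm38.p6) by accession. The number of arrays limits the precision, and no member spot was saturated. All measured member genes could be named. Every probe is given for 7 genes of interest (Tnfrsf12a, Tnfsf12, Tnfrsf1a, Tnfrsf1b, Tnf, Traf2 and Traf6), for members at least 1.5-fold apart or with such a bound, and for members whose probes differ in sign over at least 0.5. Up to 3 genes were named per pathway list. Members, lists and rules were chosen with earlier results of these data known. The scaling and gene summary were tested on simulated data. Alternatives covered background correction, scaling, dim probes, flags and the probe rule. Software was limma 3.58.1 in R 4.3.3, and pandas 2.3.3, numpy 2.4.6 and matplotlib 3.10.9 in Python 3.11.15.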

Additional observations from a re-analysis of the deposited data

How the results depend on the processing

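The count of 1 member at least 1.5-fold higher (Tnfrsf9) became 0 with normexp background correction, median centring, the 75th percentile over detected probes, quantile normalization, the series value table, the stricter filter on dim probes, a 2-fold threshold, and 1.5-fold past the median of all genes, the last chosen after seeing the data. The count of 1 lower (Tnfrsf14) became 0 with normexp, the stricter filter and a 2-fold threshold. Both counts became 3 with no filter on dim probes, which adds genes not measured otherwise, and 2 with the mean over measured probes, which adds Traf6 and Tnfaip1. Centring on 7 spike-in probes moved all log2 differences upwards by 1.00 and gave 29 higher and 0 lower, a member median of 1.02 against 1.06 for all genes, and 0.31 for Tnfrsf14, so the differences are relative to the bulk of the signal. The stricter filter left 28 of the 46 member probes, by its construction. With the mean over measured probes Tnfrsf23 had -0.23 in place of 0.25, and with background-flagged spots left out Tnfaip8 had 0.24 in place of -0.26, from its other probe. Of the other comparisons of single genes with an alternative, 95 stayed within 0.36, the SD between probes of a gene. Many of these could not move, so their number is no measure of robustness. The filters on dim probes leave the value of a gene that stays measured as it was. The mean over measured probes does the same for a gene with 1 such probe, and a change of centring shifts all genes alike. No paired analysis was possible because each group has 1 array.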
